A study of Mus musculus with 8 samples.

Results

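The genes described here are 36 genes that endothelial cells express, measured by RNA sequencing in hepatocytes of Taf2 conditional knockout and wild-type mice. They comprise genes of all endothelium, of the liver sinusoids and of larger vessels, and were taken by symbol from the 24411 genes of the deposited table, where all 36 were found. Of the 36, 28 passed the filter on low counts that left 12122 genes for testing. The groups compared were TAF2 KO, cells of conditional knockout mice in which Taf2 is deleted in hepatocytes alone (4 libraries), and WT, hepatocytes of wild-type mice (4 libraries). Both were isolated from the liver and cultured, and RNA was taken 2 days after plating. Taf2 encodes a subunit of TFIID, which seeds assembly of the transcription machinery on core promoters. The sources used here do not give the promoter that drives the recombinase, the deleted exons, the age, sex and strain of the mice, or whether each library came from its own animal. P-values therefore measure the spread between these libraries, which may be technical.

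Liver sinusoids are lined by a fenestrated endothelium that lies against the hepatocytes and takes up waste molecules from blood through scavenger receptors, while portal and central veins and arteries carry a continuous endothelium. Endothelial cells depend on vascular endothelial growth factor (VEGF), which signals through receptor tyrosine kinases, and on angiopoietins, which signal through the Tie receptors. In return they send signals to hepatocytes, among them Wnt ligands and R-spondins of the central vein that maintain the pericentral zone of the lobule. Most of the genes described here are not characteristic of hepatocytes.

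Library totals ran from 20287031 to 23933585 counts in TAF2 KO and from 18947060 to 22824561 counts in WT, so 1 count was worth between 0.0423 and 0.0522 CPM. CPM, a count divided by library size, was computed with library sizes scaled by the TMM method, which corrects for differences in composition. Taf2 stood at 13.9, 15.7, 13.4 and 12.7 CPM in the TAF2 KO libraries, against 42.5, 46.4, 45.1 and 42.2 CPM in the WT libraries, and the genotypes did not overlap. Its log2 fold change of -1.66 came from counts over the whole gene, and transcript remained in every TAF2 KO library. The 15 hepatocyte markers examined summed to between 83654 and 91064 CPM in the TAF2 KO libraries and between 70715 and 76049 CPM in the WT libraries. Alb alone took 5.22% to 5.86% of counts in the TAF2 KO libraries and 3.66% to 4.03% in the WT libraries. The higher sum thus rests on Alb, and the median log2 fold change of the 15 was 0.14. The 36 endothelial genes together summed to between 261 and 272 CPM in the TAF2 KO libraries and between 98.0 and 109.8 CPM in the WT libraries, far below the hepatocyte sum in both genotypes.

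The endothelial genes were higher in the TAF2 KO libraries. Of the 28 tested, 27 rose and 0 fell (adjusted p under 0.05, edgeR's quasi-likelihood test), against 30.2% of all genes tested called higher and 31.2% called lower. The median log2 fold change (TAF2 KO over WT) of the 28 was 1.70, and that of all genes tested was -0.0035. In 26 of the 28 every TAF2 KO library lay above every WT library, as it did for 26.9% of all genes tested. A log2 fold change of at least 1 was called in 21 of the 28, against 6.9% of all genes tested. The filter bears on these counts, since a gene can pass it through its higher group alone. It asked for about 0.472 CPM, before TMM scaling, in 4 libraries. Icam2, Emcn, Sox17 and Nos3 reached that in every TAF2 KO library but not in every WT library. Rspo3 reached it in some libraries of each genotype and in all of neither. Of the 23 that the WT libraries alone would have kept, 22 were higher, with a median log2 fold change of 1.70. Of all 11503 genes so kept, 3259 were higher and 3782 lower, with a median of -0.018. The 7 endothelial genes that averaged 5 CPM or more in WT had log2 fold changes from 0.74 to 2.03. In bulk RNA a larger number of cells of a type and more RNA per cell cannot be told apart.

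**Figure D1:**
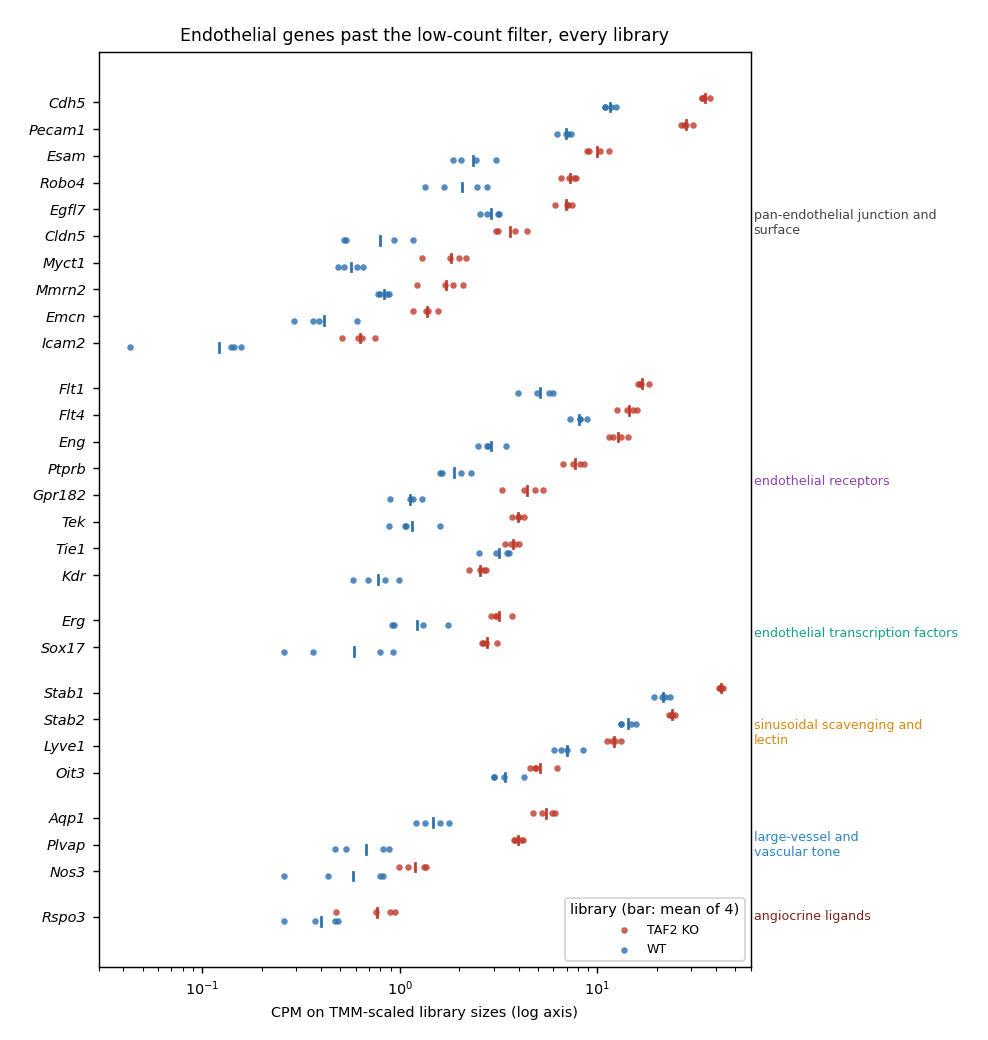
Level of each of the 28 endothelial genes past the low-count filter (rows, grouped by role) in every library, as CPM on a log axis, with 4 TAF2 KO points above 4 WT points and a bar at each mean. Points of the genotypes overlap for Tie1 and Rspo3, and the lowest WT point, Icam2 at 0.0434 CPM in WT replicate 1, is a single count.

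Genes of cell junctions and the cell surface that all endothelium shares were higher in each of the 10 cases tested, with log2 fold changes from 1.04 to 2.34. Cdh5, the cadherin of endothelial adherens junctions (chr8:104101625-104144511, build mm10), had 34.7, 34.0, 37.4 and 34.1 CPM in the TAF2 KO libraries, against 11.0, 11.7, 11.0 and 12.5 CPM in the WT libraries (edgeR log2 fold change 1.60, SE 0.061, adjusted p = 1.52e-14). Pecam1, an adhesion molecule at the borders between endothelial cells (chr11:106654217-106750628), had 28.3, 27.6, 30.7 and 26.7 CPM in the TAF2 KO libraries, against 6.29, 7.10, 7.41 and 6.93 CPM in the WT libraries (edgeR log2 fold change 2.03, SE 0.071, adjusted p = 5.17e-15). Both genes were tightly grouped within a genotype, and the lowest TAF2 KO library stood well above the highest WT library. Esam, another junctional adhesion molecule, had 10.3, 9.14, 11.5 and 8.91 CPM in the TAF2 KO libraries, against 1.87, 2.43, 2.04 and 3.09 CPM in the WT libraries (edgeR log2 fold change 2.08, SE 0.13, adjusted p = 3.17e-11).

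The remaining 7 tested also rose. Robo4, an endothelial roundabout receptor, had a log2 fold change of 1.84 (SE 0.15), and Egfl7, a secreted protein of the vessel wall, 1.25 (SE 0.11). Cldn5, a tight junction claudin, had 2.16 (SE 0.21), and Icam2, an adhesion molecule for leukocytes, 2.34 (SE 0.41). Icam2 rested on few reads, 12, 15, 15 and 13 counts in the TAF2 KO libraries and 1, 3, 3 and 3 in the WT libraries. Emcn, the sialomucin endomucin, had 1.70 (SE 0.26), Myct1 1.67 (SE 0.23) and Mmrn2, an extracellular matrix protein of vessels, 1.04 (SE 0.21). The largest edgeR adjusted p among these 7 was 0.000256, and in none of them did the genotypes overlap. Exons of Egfl7 share 64 bases with Agpat2 on the opposite strand and 264 bases with the overlapping gene model Gm20532, and the sources used here do not say whether counting used strand.

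Endothelial genes are known targets of ETS-family factors such as ERG, which bind a GGAA core, so the promoters of the 36 genes were searched. RefSeq promoter sequences (build GRCm38.p6) were found for 20 of the 36 genes, with 24 promoters among them. In the 250 bases before the start, CAGGAAG occurred on either strand in 8 of the 24 promoters, those of 7 genes, and in 10.8% of 32851 promoters of all genes. The other ETS form searched, CCGGAAG, occurred in 0 of the 24 and in 6.91% of all promoters. The bare core GGAA, which is contained in both forms, was in 21 of the 24 and in 93.4% of all promoters, and TATAAA was in 4 of the 24 and in 12.4% of all. The 7 genes were Egfl7, Robo4, Emcn, Stab1, Erg, Ushbp1 and Cd34, and of these Ushbp1 and Cd34 were under the low-count filter. Cd34 was not called with no filter either, with 9 counts in TAF2 KO and 10 in WT. Promoters are shown for the 3 of them that are tested junction and surface genes and, as a sinusoidal gene, Stab1. The sequences run 5′ to 3′ on the gene's strand and end at the base before the start, and capitals mark CAGGAAG or its reverse complement CTTCCTG.
Egfl7, chr2:26580833-26581082, plus strand: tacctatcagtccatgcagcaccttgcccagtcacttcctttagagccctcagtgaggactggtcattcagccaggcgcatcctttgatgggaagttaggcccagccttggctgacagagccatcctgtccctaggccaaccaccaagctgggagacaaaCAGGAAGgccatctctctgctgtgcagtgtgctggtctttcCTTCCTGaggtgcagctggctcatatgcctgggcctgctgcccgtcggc
Robo4, chr9:37401722-37401971, plus strand: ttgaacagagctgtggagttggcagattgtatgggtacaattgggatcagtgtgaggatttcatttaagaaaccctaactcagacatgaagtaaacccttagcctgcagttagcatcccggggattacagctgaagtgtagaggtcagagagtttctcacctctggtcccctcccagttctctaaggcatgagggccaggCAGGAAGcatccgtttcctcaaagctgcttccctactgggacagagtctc
Emcn, chr3:137340828-137341077, plus strand: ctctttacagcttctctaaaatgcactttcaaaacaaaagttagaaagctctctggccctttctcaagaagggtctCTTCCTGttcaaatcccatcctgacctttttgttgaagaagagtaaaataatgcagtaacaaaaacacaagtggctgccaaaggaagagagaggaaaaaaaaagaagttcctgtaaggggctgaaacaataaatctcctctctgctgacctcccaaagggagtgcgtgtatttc
Stab1, chr14:31168642-31168891, minus strand: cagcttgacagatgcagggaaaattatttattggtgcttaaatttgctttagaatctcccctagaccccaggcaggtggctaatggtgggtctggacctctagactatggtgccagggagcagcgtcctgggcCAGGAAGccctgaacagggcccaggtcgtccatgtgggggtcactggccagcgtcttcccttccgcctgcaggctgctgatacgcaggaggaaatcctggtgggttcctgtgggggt
The matches began 90 and 49 bases before the start in the Egfl7 promoter shown, 50 bases before it in Robo4, 174 in Emcn and 117 in Stab1. These are matches of letters in a window, and no binding was measured.

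Receptors of endothelial cells were higher in 7 of 8 cases, and 0 were lower. Among the VEGF receptors, Flt1 (VEGFR1), which binds VEGF-A, VEGF-B and placental growth factor, had 16.6, 18.3, 16.5 and 16.1 CPM in the TAF2 KO libraries, against 5.94, 5.74, 4.96 and 3.98 CPM in the WT libraries (edgeR log2 fold change 1.70, SE 0.095, adjusted p = 4.84e-12). Kdr (VEGFR2), the main signalling receptor for VEGF-A, had 2.67, 2.55, 2.25 and 2.75 CPM in the TAF2 KO libraries, against 0.694, 0.583, 0.992 and 0.843 CPM in the WT libraries (edgeR log2 fold change 1.71, SE 0.19, adjusted p = 1.57e-07). Flt4 (VEGFR3), which binds VEGF-C and VEGF-D and is expressed in lymphatic and sinusoidal endothelium, had 14.1, 15.1, 12.6 and 15.9 CPM in the TAF2 KO libraries, against 8.20, 8.85, 8.14 and 7.26 CPM in the WT libraries (edgeR log2 fold change 0.83, SE 0.085, adjusted p = 5.12e-08). The genotypes did not overlap for any of the 3. Per kb of transcript, Flt4 was at 2.31 ± 0.231 CPM per kb in TAF2 KO and 1.30 ± 0.104 CPM per kb in WT, and Flt1 at 2.45 ± 0.141 CPM per kb in TAF2 KO and 0.748 ± 0.129 CPM per kb in WT (SD, n = 4 each).

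The Tie receptors differed from each other. Tek (Tie2), the receptor for angiopoietins, had 3.98, 3.70, 4.28 and 4.03 CPM in the TAF2 KO libraries, against 1.61, 1.07, 0.887 and 1.08 CPM in the WT libraries (edgeR log2 fold change 1.76, SE 0.16, adjusted p = 1.05e-08), with no overlap. Tie1, its co-receptor without a known angiopoietin ligand of its own, had 3.43, 3.65, 3.85 and 4.03 CPM in the TAF2 KO libraries, against 3.08, 2.53, 3.50 and 3.56 CPM in the WT libraries (edgeR log2 fold change 0.24, SE 0.13, adjusted p = 0.116). The Tie1 values overlapped between the genotypes, and the gene did not pass the test. Its log2 fold change lay between 0.15 and 0.30 over 16 alternative settings, with adjusted p from 0.0762 to 0.340.

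Relations within a receptor or scavenger family were tested on the log2 ratio of 2 genes in each library, in 5 pairs, by exact two-sided permutation of the libraries, where 0.0286 is the smallest p that 4 against 4 allows. The log2 ratio of Tie1 to Tek was -0.095 ± 0.10 in TAF2 KO and 1.40 ± 0.44 in WT (SD, n = 4 each; difference -1.49, exact permutation p = 0.0286, adjusted 0.0476). That of Flt4 to Kdr was 2.46 ± 0.073 in TAF2 KO and 3.25 ± 0.38 in WT (SD, n = 4 each; difference -0.80, exact permutation p = 0.0286, adjusted 0.0476). That of Flt1 to Flt4 was 0.23 ± 0.15 in TAF2 KO and -0.66 ± 0.16 in WT (SD, n = 4 each; difference 0.89, exact permutation p = 0.0286, adjusted 0.0476). The ratio of Flt1 to Kdr was 2.68 ± 0.15 in TAF2 KO and 2.60 ± 0.50 in WT (SD, n = 4 each; difference 0.085, exact permutation p = 0.743, adjusted 0.743), and that of Stab2 to Stab1 was -0.83 ± 0.063 in TAF2 KO and -0.59 ± 0.13 in WT (SD, n = 4 each; difference -0.23, exact permutation p = 0.0571, adjusted 0.0714). The 3 relations with an adjusted p of 0.0476 were those of Tie1 to Tek, Flt4 to Kdr and Flt1 to Flt4. That adjusted value was reached only because 3 of the 5 pairs stood at the smallest p, and 2 of these share Flt4. The pairs were chosen with earlier results of these data known. In TAF2 KO, Tie1 and Flt4 were thus lower relative to Tek and Kdr than in WT, while neither had a lower mean CPM.

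**Figure D2:**
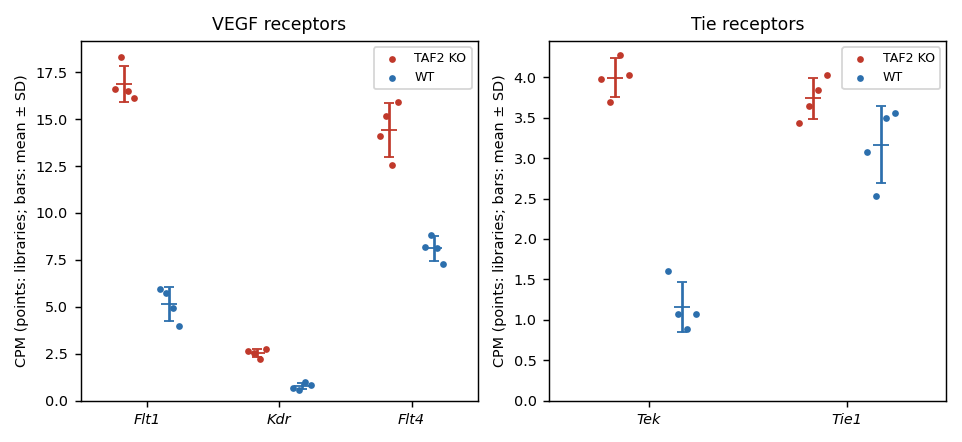
CPM of the VEGF receptor genes (left) and the Tie receptor genes (right) in each library (points), with the mean ± SD of 4 libraries. TAF2 KO points lie above WT points for Flt1, Kdr, Flt4 and Tek and overlap with them for Tie1.

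Of the other receptors, Eng (endoglin), a co-receptor for bone morphogenetic proteins, had 11.5, 13.2, 12.0 and 14.4 CPM in the TAF2 KO libraries, against 2.78, 3.45, 2.51 and 2.81 CPM in the WT libraries (edgeR log2 fold change 2.14, SE 0.11, adjusted p = 1.01e-12). Ptprb, the phosphatase that acts on Tek and Cdh5 complexes, had a log2 fold change of 2.05 (SE 0.13), and Gpr182, an atypical chemokine receptor of sinusoidal endothelium, of 1.98 (SE 0.18). Neither gene overlapped between the genotypes, and their adjusted p values in edgeR were 2.81e-11 and 8.65e-09. Exons of Eng share 61 bases with Fpgs and those of Gpr182 share 74 bases with Zbtb39, both on the opposite strand.

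Both transcription factors tested were higher. Erg, the ETS factor that maintains endothelial identity, had 3.09, 3.70, 2.90 and 3.08 CPM in the TAF2 KO libraries, against 0.911, 1.75, 0.940 and 1.31 CPM in the WT libraries (edgeR log2 fold change 1.37, SE 0.18, adjusted p = 2.12e-06). Sox17, an arterial SOX factor, had 2.62, 2.65, 3.11 and 2.75 CPM in the TAF2 KO libraries, against 0.260, 0.924, 0.365 and 0.796 CPM in the WT libraries (edgeR log2 fold change 2.25, SE 0.24, adjusted p = 1.24e-07). The WT libraries of Sox17 were spread from 6 to 19 counts, and every TAF2 KO library held at least 53 counts. Exons of Sox17 share 804 bases with Gm37587 on the opposite strand, so part of its reads may come from that gene model.

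The tested scavenging and lectin genes of the sinusoids changed by less than the median of the endothelial genes. All 4 tested were higher, with log2 fold changes from 0.59 to 0.97. Clec4g of the same list was under the low-count filter, with 32 counts in TAF2 KO and 12 in WT, and is not covered by that range. Stab1 (stabilin-1, chr14:31139013-31168641), a scavenger receptor also found on some macrophages, had 42.5, 41.3, 43.4 and 41.8 CPM in the TAF2 KO libraries, against 19.3, 21.3, 23.4 and 22.1 CPM in the WT libraries (edgeR log2 fold change 0.97, SE 0.055, adjusted p = 5.15e-12). Stab2 (stabilin-2), the hyaluronan clearance receptor of the sinusoids, had 23.5, 24.8, 23.8 and 23.0 CPM in the TAF2 KO libraries, against 13.2, 15.7, 14.8 and 13.2 CPM in the WT libraries (edgeR log2 fold change 0.74, SE 0.065, adjusted p = 5.48e-09). Lyve1, a hyaluronan receptor of sinusoidal and lymphatic endothelium, had 11.2, 11.9, 12.4 and 13.3 CPM in the TAF2 KO libraries, against 6.55, 8.51, 6.05 and 7.07 CPM in the WT libraries (edgeR log2 fold change 0.79, SE 0.093, adjusted p = 3.78e-07). In each of the 3 the genotypes were apart, and the values within a genotype lay close together. Exons of Stab1 share 112 bases with Nt5dc2 and those of Stab2 share 141 bases with Gm16268, both on the opposite strand.

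Oit3, a secreted zona pellucida domain protein of sinusoidal endothelium, had 4.91, 6.30, 4.84 and 4.55 CPM in the TAF2 KO libraries, against 2.99, 3.01, 3.39 and 4.26 CPM in the WT libraries (edgeR log2 fold change 0.59, SE 0.13, adjusted p = 0.000829). The gap between its lowest TAF2 KO library and its highest WT library was the narrowest of these 4 genes. Per kb of transcript, Stab1 was at 5.28 ± 0.112 CPM per kb in TAF2 KO and 2.69 ± 0.214 CPM per kb in WT and Lyve1 at 4.22 ± 0.296 CPM per kb in TAF2 KO and 2.44 ± 0.366 CPM per kb in WT. Cdh5, of the junction genes, was at 8.78 ± 0.402 CPM per kb in TAF2 KO and 2.89 ± 0.181 CPM per kb in WT on the same scale (SD, n = 4 each).

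The make-up of the endothelial sum differed between the genotypes. The sinusoidal scavenging and lectin genes took 31.3% to 31.8% in the TAF2 KO libraries and 43.1% to 45.2% in the WT libraries. The junction and surface genes took 35.2% to 38.1% in the TAF2 KO libraries and 26.6% to 29.2% in the WT libraries, and the receptors 24.0% to 26.3% in the TAF2 KO libraries and 21.0% to 25.6% in the WT libraries. The ranges of the genotypes did not overlap for the sinusoidal and the junction genes and did overlap for the receptors. The sinusoidal share refers to the scavenging and lectin list alone: Gpr182, also of sinusoidal endothelium but counted with the receptors, had a log2 fold change of 1.98 (SE 0.18), and Dnase1l3, a secreted DNase of sinusoidal endothelium outside the 36, had 1.75 (SE 0.23). Fcgr2b and Ntn4, also expressed in sinusoidal endothelium, had 1.15 (SE 0.16) and 0.71 (SE 0.17). Gata4, a regulator of sinusoidal identity, had 0.047 (SE 0.077) and did not pass. F8, which sinusoidal endothelium expresses, was lower, at -0.65 (SE 0.17). Dnase1l3 and these further genes were named after their values were seen. These shares are sums of CPM, so long transcripts weigh more in them, and the grouping of the genes was made with earlier results of these data known. No test was made of them.

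**Figure D3:**
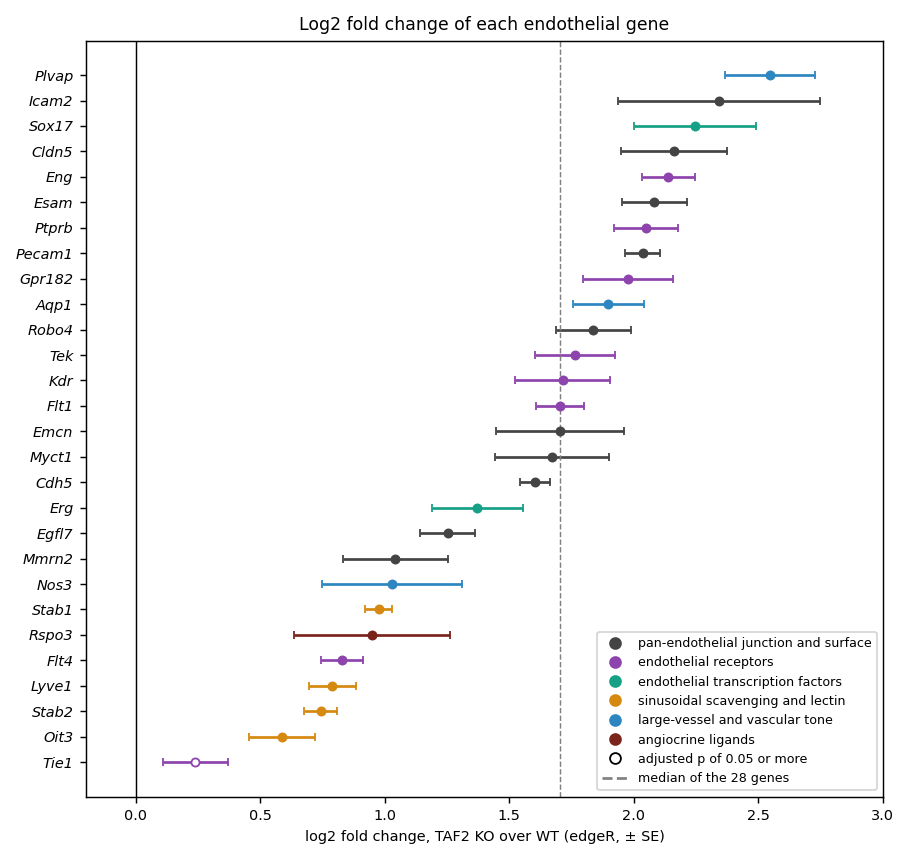
Log2 fold change (TAF2 KO over WT, edgeR) ± SE of each of the 28 endothelial genes tested, coloured by role, with filled points for an adjusted p under 0.05. Plvap had the highest value at 2.55 and Tie1, the open point, the lowest at 0.24, and the 4 sinusoidal scavenging genes lie between 0.59 and 0.97, left of the median of 1.70.

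Genes of larger vessels and vascular tone were higher in the 3 cases tested. Plvap, a protein of the diaphragms of endothelial fenestrae and caveolae, had 3.85, 4.20, 3.80 and 4.12 CPM in the TAF2 KO libraries, against 0.824, 0.535, 0.887 and 0.469 CPM in the WT libraries (edgeR log2 fold change 2.55, SE 0.18, adjusted p = 1.8e-10). Aqp1, a water channel of vessels that bile duct cells also express, had 5.25, 4.75, 6.14 and 5.87 CPM in the TAF2 KO libraries, against 1.34, 1.22, 1.77 and 1.59 CPM in the WT libraries (edgeR log2 fold change 1.90, SE 0.14, adjusted p = 5.54e-10). Nos3, the endothelial nitric oxide synthase, had 1.35, 1.10, 0.994 and 1.33 CPM in the TAF2 KO libraries, against 0.434, 0.826, 0.261 and 0.796 CPM in the WT libraries (edgeR log2 fold change 1.03, SE 0.28, adjusted p = 0.00365). Plvap and Aqp1 were clearly apart between the genotypes, whereas Nos3 was scattered in WT, from 5 to 17 counts. Exons of Nos3 share 1040 bases with Gm15587 and 294 bases with Atg9b on the opposite strand. Vwf, von Willebrand factor, which is stored in the endothelium of larger vessels, held 3, 1, 2 and 5 counts in the TAF2 KO libraries and 2, 2, 1 and 0 in the WT libraries and was not tested.

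Of the ligands by which endothelium signals to hepatocytes, only Rspo3 passed the low-count filter. Rspo3, an R-spondin that strengthens Wnt signalling and is produced in the central vein, had 0.889, 0.949, 0.475 and 0.758 CPM in the TAF2 KO libraries, against 0.260, 0.486, 0.470 and 0.375 CPM in the WT libraries (edgeR log2 fold change 0.95, SE 0.31, adjusted p = 0.0133). TAF2 KO replicate 3 lay within the WT range, and without WT replicate 1 the gene did not pass (log2 fold change 0.78, edgeR adjusted p = 0.0555). Exons of Rspo3 share 404 bases with Gm48159 on the opposite strand. Wnt2, a sinusoidal and central vein ligand, held 11, 2, 4 and 5 counts in the TAF2 KO libraries and 5, 4, 1 and 1 in the WT libraries, and in CPM 2 of the 4 TAF2 KO libraries stood within the WT range. Wnt9b, a ligand of the central vein, held 0 counts in all 8 libraries, which allows up to 3 counts, or 0.127 to 0.157 CPM, in any single library. That limit covers counting error only.

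The other 6 genes under the filter, Vwf included, held up to 32 counts per genotype. Summed over 4 libraries, Clec4g, a sinusoidal C-type lectin, held 32 counts in TAF2 KO and 12 in WT, and Sox18, a SOX factor of vessels, 31 in TAF2 KO and 10 in WT. Ushbp1 held 28 counts in TAF2 KO and 5 in WT. Ramp2, the co-receptor for adrenomedullin, held 19 counts in TAF2 KO and 5 in WT, and its exons share 1103 bases with Vps25 on the same strand. Cd34, a sialomucin of vessels and progenitor cells, held 9 counts in TAF2 KO and 10 in WT. With no low-count filter, Clec4g, Sox18, Ushbp1 and Ramp2 were higher at edgeR adjusted p between 0.00376 and 0.0433, while Cd34, Vwf and Wnt2 did not pass. At these counts the sizes of the changes are poorly determined.

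Endothelial genes outside the 36 were read from a further list of 45, of which 38 were tested. Of these, 28 were higher and 6 were lower, with a median log2 fold change of 1.33, against 30.2% of all genes tested called higher and 31.2% called lower. Among the 29 that the WT libraries alone would have kept, 19 were higher and 6 lower, with a median of 0.98. Of all 11503 genes so kept, 3259 were higher and 3782 lower, with a median of -0.018. Adgrf5, an adhesion G protein-coupled receptor, averaged 33.6 ± 2.26 CPM in TAF2 KO and 9.54 ± 0.875 CPM in WT (SD, n = 4 each), with a log2 fold change of 1.81 (SE 0.071). Cd93, a C-type lectin-like receptor that binds Mmrn2, averaged 34.8 ± 2.13 CPM in TAF2 KO and 12.0 ± 0.333 CPM in WT and had 1.54 (SE 0.061). Adgrl4, an adhesion receptor of vessels, had 2.21 (SE 0.10). The edgeR adjusted p of these 3 was at most 3.35e-13.

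Some genes of that list were lower. Which cells their reads came from was not tested. Hhex, a homeobox factor of hepatocytes and endothelium and the gene with the highest mean CPM of the list, averaged 92.1 ± 4.60 CPM in TAF2 KO and 112 ± 2.75 CPM in WT (edgeR log2 fold change -0.29, SE 0.039, adjusted p = 2.37e-06). Nrp2, a co-receptor for VEGF-C and semaphorins, had -0.56 (SE 0.090), and Tm4sf1, a tetraspanin-like protein, -0.44 (SE 0.12). The remaining 3 that were lower were F8, the coagulation factor VIII gene, at -0.65 (SE 0.17), Ephb4, the ephrin receptor of veins, at -0.22 (SE 0.074), and Nrp1, the VEGF co-receptor, at -0.16 (SE 0.044). Gata4, a master regulator of sinusoidal identity that hepatocytes also express, averaged 9.98 ± 0.724 CPM in TAF2 KO and 9.66 ± 0.465 CPM in WT and did not pass (edgeR adjusted p = 0.617). The last 4 genes were named after their values were seen.

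Genes for ligands that act on endothelial receptors were higher in 13 of 15 cases, and 1 was lower, with a median log2 fold change of 1.16. Over all genes tested, 30.2% were called higher and 31.2% lower. Of 13 that WT alone would have kept, 11 were higher and 1 lower, with a median of 0.76. Over all genes, WT alone would have kept 11503, of which 3259 were higher and 3782 lower. Vegfa, the ligand of Flt1 and Kdr and the gene with the highest mean CPM of the list, had 329, 295, 337 and 286 CPM in the TAF2 KO libraries, against 88.5, 103, 89.8 and 92.1 CPM in the WT libraries (edgeR log2 fold change 1.74, SE 0.055, adjusted p = 1.14e-15). Pgf, placental growth factor, a ligand of Flt1, had 70.3, 71.5, 78.5 and 69.2 CPM in the TAF2 KO libraries, against 22.3, 26.2, 22.3 and 25.3 CPM in the WT libraries (edgeR log2 fold change 1.59, SE 0.055, adjusted p = 4.68e-15). Adm, adrenomedullin, whose receptor contains Ramp2, had 106, 91.9, 121 and 97.3 CPM in the TAF2 KO libraries, against 12.2, 16.4, 11.6 and 16.3 CPM in the WT libraries (edgeR log2 fold change 2.88, SE 0.093, adjusted p = 1.43e-15). Each of the 3 was above 10 CPM in every library, and the genotypes were far apart.

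Angpt2, an angiopoietin that endothelium itself secretes, averaged 7.49 ± 0.150 CPM in TAF2 KO and 3.28 ± 0.247 CPM in WT (edgeR log2 fold change 1.19, SE 0.096, adjusted p = 1.54e-09), and Angpt1, the main agonist of Tek, held 0 counts in all 8 libraries. Gdf2, a circulating ligand of the receptor complex that holds Eng, averaged 4.28 ± 0.381 CPM in TAF2 KO and 0.471 ± 0.175 CPM in WT (edgeR log2 fold change 3.15, SE 0.20, adjusted p = 3.09e-11). Vegfc, a ligand of Flt4, averaged 1.85 ± 0.625 CPM in TAF2 KO and 2.47 ± 0.300 CPM in WT and did not pass (edgeR adjusted p = 0.0595). Angptl4, an inhibitor of lipoprotein lipase, was the gene that was lower, at -0.25 (SE 0.036). Angpt2, Angpt1, Gdf2 and Vegfc were named after their values were seen.

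Receptors for Wnt and R-spondin and hepatocyte genes that respond to them were called in both directions, 8 higher, 8 lower and 7 not called of 23 tested. Both shares are near the 30.2% higher and 31.2% lower over all genes tested, and the median log2 fold change was -0.053. Cyp2e1, a pericentral cytochrome P450, averaged 539 ± 33.9 CPM in TAF2 KO and 294 ± 18.3 CPM in WT (log2 fold change 0.88, SE 0.047), and the frizzled receptor genes Fzd7 and Fzd5 followed with 0.70 (SE 0.081) and 0.33 (SE 0.043). Lect2, a secreted protein and Wnt target, averaged 15.9 ± 0.939 CPM in TAF2 KO and 52.3 ± 4.16 CPM in WT (log2 fold change -1.71, SE 0.062). Cyp1a2 and Oat, both pericentral, had -0.84 (SE 0.042) and -0.38 (SE 0.050). Ctnnb1, β-catenin, with the highest mean CPM of this list, averaged 582 ± 16.5 CPM in TAF2 KO and 566 ± 5.07 CPM in WT and did not pass (edgeR adjusted p = 0.311).

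**Figure D4:**
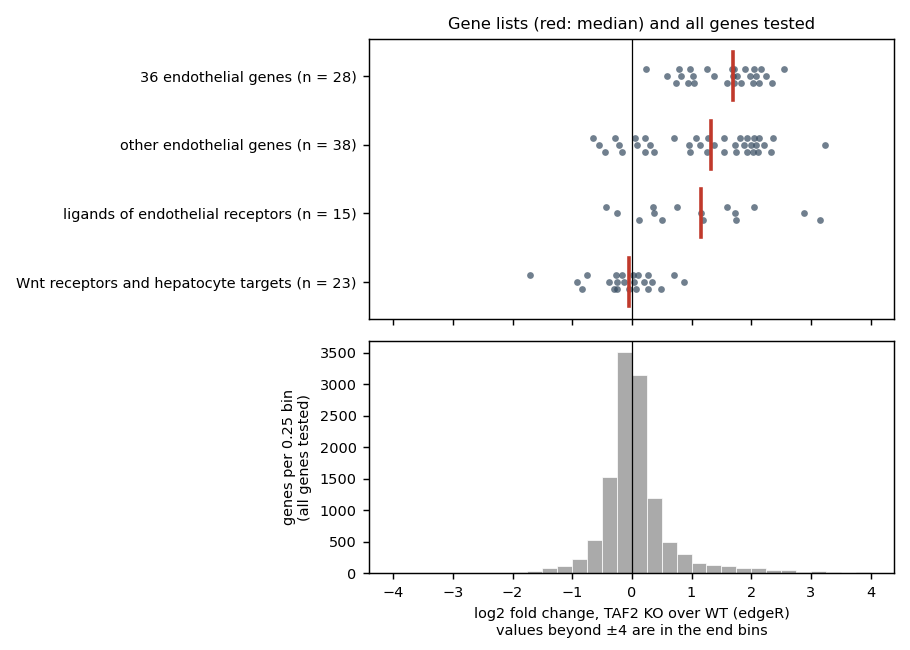
Log2 fold changes (TAF2 KO over WT) of the tested genes of 4 lists (points; red bar, median) above a histogram of all 12122 genes tested. The medians are 1.70 for the endothelial genes, 1.33 for the other endothelial genes, 1.16 for the ligands and -0.053 for the Wnt genes.

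Markers of other liver cells were read from the same libraries. Of all genes tested, 30.2% were called higher and 31.2% lower. Of 18 macrophage markers 15 were tested, of which 14 were higher and 0 lower, with a median log2 fold change of 2.53. That was above the median of 1.70 of the endothelial genes. The macrophage list summed to between 366 and 394 CPM in the TAF2 KO libraries and between 185 and 212 CPM in the WT libraries. Of 17 stellate cell and fibroblast markers 15 were tested, of which 12 were higher and 2, Tagln and Acta2, lower, and the list summed to between 217 and 232 CPM in the TAF2 KO libraries and between 226 and 245 CPM in the WT libraries. Tagln, a smooth muscle protein, alone averaged 27.6 ± 1.01 CPM in TAF2 KO and 139 ± 9.57 CPM in WT (SD, n = 4 each), so that sum ran against the median log2 fold change of 2.18 of its tested genes. Of 11 lymphoid markers 6 held 0 counts in every library and only Ptprc was tested and higher, and the list summed to between 0.949 and 1.14 CPM in the TAF2 KO libraries and between 0.0469 and 0.574 CPM in the WT libraries. Of 5 lymphatic endothelial markers, Pdpn, Ccl21a and Mmrn1 held 0 counts in every library. Reln, which is also on the stellate cell and fibroblast list, was higher, and Prox1, which hepatocytes also express, was lower. The lymphatic list summed to between 111 and 124 CPM in the TAF2 KO libraries and between 79.5 and 88.0 CPM in the WT libraries. Its rise came from Reln alone. Of 9 cholangiocyte markers 5 were tested, of which 2 were higher and 3 lower, and they summed to between 171 and 199 CPM in the TAF2 KO libraries and between 136 and 151 CPM in the WT libraries. Of 15 hepatocyte markers 8 were higher and 4 lower. Of 6 red blood cell genes 1 was tested, Alas2, and it was lower, with the list at between 18.6 and 20.1 CPM in the TAF2 KO libraries and between 25.3 and 27.9 CPM in the WT libraries. The lymphoid, lymphatic, cholangiocyte and red blood cell lists held too few tested genes to set apart from the shares over all genes. Hepatocyte markers were called in both directions. The part of other cell types in the endothelial result was not tested.

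**Figure D5:**
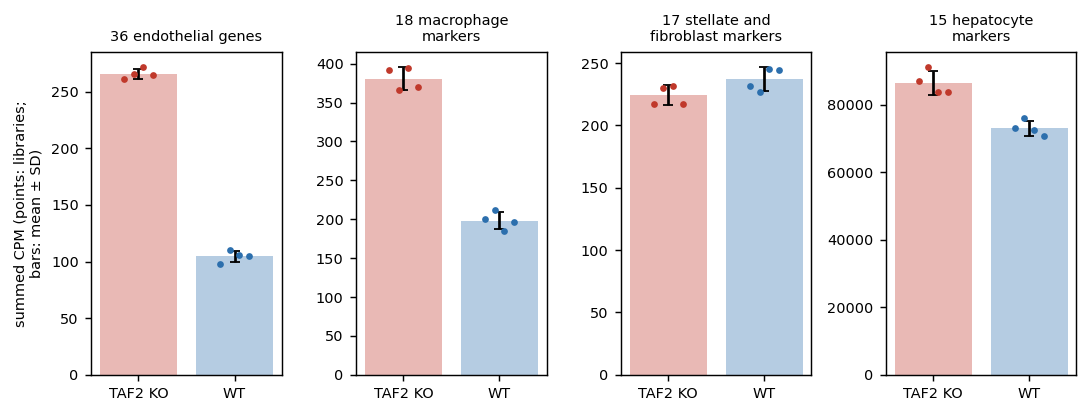
Summed CPM per library of the 36 endothelial genes and of marker lists of macrophages, stellate cells and fibroblasts, and hepatocytes (points, libraries; bars, mean ± SD of 4; each panel has its own axis from 0). The endothelial sum averaged 266 CPM in TAF2 KO and 105 CPM in WT, and the macrophage sum 381 CPM in TAF2 KO and 198 CPM in WT. The stellate and fibroblast sum averaged 224 CPM in TAF2 KO and 237 CPM in WT.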

How the data were processed

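RNA was sequenced from 8 hepatocyte libraries, 4 TAF2 KO and 4 WT, grouped by their titles. The authors deposited expected counts per gene, estimated with RSEM on build mm10 per the submitters' processing notes, and did not scale them between libraries. Neither the aligner nor the RSEM version nor the strand setting was given in the sources used here. A further 8 columns of the table match no sample and were not used. Expected counts, 2.85% of which were not whole, were rounded, and genes were kept with filterByExpr (minimum count 10, minimum total 15). After TMM scaling, genotypes were compared with edgeR 4.0.16 (quasi-likelihood test, genotype as the single term, R 4.3.3), with Benjamini-Hochberg adjustment over all 12122 genes and a threshold of 0.05. SEs were obtained as the size of the log2 fold change over the square root of the F statistic. Replicate pairs were compared by chi-square, which per degree of freedom was 3.16 or more, above sampling noise. In simulated data of 12023 genes, the fit recovered 71.6% of genes changed 1.25-fold, 92.4% at 1.5-fold and 97% at 2-fold, with 7 false calls. These shares were not split by count, so they do not give the recovery at low counts. Vegfd, of the ligand list, was read under its older symbol Figf.

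Lengths (median over matched transcripts) and positions came from GENCODE M21 on the same build, and promoters from RefSeq. Log2 ratios within families used log2 CPM with a prior count of 2. Alternatives were other scalings, filters and tests (limma 3.58.1, DESeq2 1.42.0), thinning, a replicate block and leaving out each library. The 36 genes, the other lists and the tests were chosen with earlier results of these data known. Genes of the text follow a rule: within each role the genes with the highest mean CPM and those not called, the VEGF and Tie receptors and the angiocrine ligands by library, and of other lists up to 3 genes per direction with the smallest adjusted p and the one with the highest mean CPM.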

Additional observations from a re-analysis of the deposited data

Results flagged for a closer look

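In 58 sets of 4 libraries (each of the 28 endothelial genes and their sum in each genotype), Dixon's ratio exceeded its critical value of 0.829 for 1 set, where chance gives about 1 in 20. Icam2 stood at 0.0434 CPM in WT replicate 1, a single count, against 0.141 to 0.157 CPM, 3 counts each, in the other WT libraries.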

How the results depend on the processing

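The number of endothelial genes higher in TAF2 KO was 27 with RLE and upper-quartile scaling, DESeq2, limma-voom and the replicate block, 31 with no low-count filter, 21 of 22 tested with a minimum count of 30, and 25 of 26 tested after thinning every library to the smallest total. Leaving out each library in turn gave 26 to 27. None of these settings called an endothelial gene lower. The median log2 fold change was 1.60 without WT replicate 2, the lowest of the fits without a library, whose highest was 1.73, and reached 1.75 with the stricter filter. The ratio of summed endothelial CPM, TAF2 KO over WT, was 2.54 (DESeq2, limma-voom and the block change no CPM and give none), with 2.48 to 2.58 without a library and 2.69 without Stab1, the gene with the highest CPM. Of 440 single values of the 28 genes, 439 kept their side of the threshold and none reversed, and the exception was Rspo3 without WT replicate 1, at a log2 fold change of 0.78 and adjusted p = 0.0555. The other endothelial genes gave 20 to 32 higher and 5 to 6 lower. Replicate numbers showed no pairing of libraries: same-numbered libraries had correlations of deviations between -0.069 and 0.011, and the replicate block changed no call of the 28 genes. With 4 libraries per genotype these values cannot exclude a pairing, and the labels do not say whether there was one. The 3 counts that set the detection limit hold for each library. Genes at a few counts, such as Icam2, Rspo3 and those under the filter, are limited by depth.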
